A study of Caenorhabditis elegans with 8 samples.

Results

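Repair of UV damage was followed here in the genes that encode the nucleotide excision repair machinery of *C. elegans* itself: *xpa-1*, *xpc-1*, *csb-1*, *csa-1*, *ercc-1*, *xpf-1* and *xpg-1*. The 7 genes were taken by name from the Ensembl annotation of assembly WBcel235, which holds 46890 nuclear genes. XR-seq captures the short oligonucleotides cut out around a lesion, here pulled down by an antibody to the cyclobutane pyrimidine dimer (CPD), so that a read marks a repair event on a known strand. The 8 libraries fall into 4 groups of 2, and 3 of the groups were collected 1 h after UV: L1 larvae of *csb-1* (strain RB1801), worms of mixed stages of *xpc-1* (strain TG2226), and L1 larvae of WT (N2 ancestral). The remaining group was WT L1 larvae that were not irradiated. All worms were whole animals grown on NGM plates with *E. coli* OP50, each mutant was a single strain, and the alleles are not named in the sources used here. Stage and genotype cannot be told apart for *xpc-1*. The labels do not say that replicates came from separate cultures, so p-values measure the spread between 2 libraries, which may be technical.

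Nucleotide excision repair starts along a pair of routes. In global repair the XPC protein finds the lesion anywhere in the genome, and in transcription-coupled repair an RNA polymerase stalled on the transcribed strand (TS) is recognised by CSB, with CSA as the substrate receptor of a ubiquitin ligase. Both routes then use XPA, which checks the lesion and holds the complex together, the nuclease ERCC1-XPF, which cuts on the 5′ side of the lesion, and the nuclease XPG, which cuts on the 3′ side. These roles were worked out largely with the human proteins. CPDs form mainly at TT dinucleotides, so the number of TTs on each strand gives the sites at which repair can be seen.

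The genes differ widely in size and surroundings. The recognition genes are *xpc-1* on chromosome IV (1993089 to 2009027, plus strand), *csb-1* on X (15861294 to 15865918, minus strand) and *csa-1* on II (9317551 to 9319726, minus strand). The gene of the shared factor, *xpa-1*, is the shortest, with 1204 bp on chromosome I (7159714 to 7160917, plus strand). The nuclease genes all lie on the plus strand: *ercc-1* on I (10030174 to 10046760), *xpf-1* on II (11696171 to 11705371) and *xpg-1* on I (6558694 to 6562346). *ercc-1* is the longest, with 16587 bp of which 15581 are intronic, and 5 other annotated genes overlap it, among them *ncs-2* on the other strand and *nubp-1* at its 3′ end. *xpf-1* holds *inos-1* on its other strand and 1 piRNA gene, whereas the other 5 members overlap no annotated gene. The TS carried 50.8% of the TTs of *csa-1* and between 54.4% (*csb-1*) and 58.3% (*ercc-1*) of those of the others.

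Reads with a mapping quality over 20 numbered 6628507 and 13203914 in *csb-1*, 4762651 and 143716 in *xpc-1*, 8198054 and 3252700 in irradiated WT, and 10260 and 12916 in unirradiated WT. On the members lay 3884 and 7374 of these in *csb-1*, 5430 and 148 in *xpc-1*, 5339 and 2146 in irradiated WT, and 6 and 7 in unirradiated WT. *xpc-1* replicate 2 is thus very shallow, with 3 to 97 reads a member, and the values of replicate 1 stand beside the means that it moves. A TT was present in 99.2% and 99.1% of the member reads in *csb-1*, in 97.7% and 95.9% in *xpc-1* and in 98.2% and 98.3% in irradiated WT, against 4 of 6 and 5 of 7 in unirradiated WT.

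Among member reads of 24 nt, a TT lay 6 nt from the 3′ end in 52.5% and 50.4% in *csb-1*, in 50.8% and 75.0% (12 of 16 reads) in *xpc-1* and in 51.3% and 54.9% in irradiated WT. The following TS oligonucleotides of 24 nt were each read in at least 3 libraries and are shown, with this TT in capitals, as examples of what was cut out of these genes:
*xpc-1*, chrIV:2005743-2005766, minus strand: tgcactgttttcccaaTTttcgac
*csb-1*, chrX:15862605-15862628, plus strand: tccaagtagactccgaTTtcagat
*csa-1*, chrII:9319070-9319093, plus strand: acccataggaatatgtTTtgtcca
*xpf-1*, chrII:11698277-11698300, minus strand: ttacctcatttccagaTTttcgac
They are WBcel235 sequence from the RefSeq genome, written 5′ to 3′. Only oligonucleotides with this TT are shown, and others of these genes, read in as many libraries or more, lacked it. The *xpc-1* oligonucleotide was read 6 times in 5 libraries, in each of *csb-1*, *xpc-1* and WT. That of *csb-1* was read in both WT libraries and in *xpc-1* replicate 2 but not in *csb-1*, where 0 TS reads lay within 10 bp of it in either library, against 6 and 2 in WT.

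Sequence missing from a mutated gene can give no reads, so both mutated genes were scanned along their length. In *csb-1* larvae, a stretch of the *csb-1* gene was nearly without reads. Counted in 100 bp steps, 8 steps in a row, X 15863194 to 15863993, held 0 reads in both *csb-1* libraries. The same 800 bp held 33 and 1 reads in *xpc-1* and 45 and 21 in WT. In *csb-1* replicate 1 alone the run of empty steps was 1600 bp, whereas in replicate 2 it was bounded by 2 lone reads. With these set apart, the outermost *csb-1* reads placed the stretch at X 15862545 to 15864186, which is 1642 bp or 35.5% of the gene. It takes in 1354 coding bp, 47.2% of the coding sequence, in coding exons 4 to 7 of 10. Inside it lay 0 of the 181 reads of the gene in *csb-1* replicate 1, which allows up to 3 reads, and 2 of 364 in replicate 2. The edges were drawn from where the *csb-1* reads end, so these low counts follow from the choice of edges and are a description. In *xpc-1* it held 90 of 375 reads (24%) and 3 of 10, and in WT 91 of 322 (28.3%) and 46 of 148 (31.1%). Both lone reads, X 15863102 to 15863122 and 15864067 to 15864089 on the minus strand, had the highest mapping quality, 42. Just outside the 5′ edge, X 15864194 to 15864293, *csb-1* had 21 and 23 reads, *xpc-1* 19 and 0, and WT 11 and 8. The edges are printed in the sense of the coding strand, with the 30 bases outside the stretch in capitals, to show where the *csb-1* reads end:
*csb-1* 5′ edge, chrX:15864157-15864216, minus strand: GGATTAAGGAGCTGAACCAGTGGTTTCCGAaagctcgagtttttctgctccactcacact
*csb-1* 3′ edge, chrX:15862515-15862574, minus strand: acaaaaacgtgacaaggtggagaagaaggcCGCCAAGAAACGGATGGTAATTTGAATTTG
Reads can place an edge only to within the distance between neighbouring repair sites.

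The *xpc-1* gene had a smaller empty stretch in *xpc-1*. Between the outermost flanking reads, IV 1994044 to 1994533, the 490 bp held 0 of 593 reads of the gene in *xpc-1* replicate 1 and 0 of only 7 in replicate 2. They held 14 of 361 and 26 of 888 reads in *csb-1*, and 24 of 469 and 5 of 165 in WT. The stretch lies inside coding exon 2 and makes up 3.07% of the gene and 14.6% of its coding sequence. It was picked after its values were seen, as the gap of *xpc-1* replicate 1 in this gene that held most reads of the other strains. The longest run of empty 100 bp steps in both *xpc-1* libraries was elsewhere, IV 1998589 to 1999388, where *csb-1* had 4 and 2 reads and WT 3 and 1. With reads of any mapping quality it was 400 bp at another place, so runs of empty steps did not single out the 490 bp. A gap in *xpf-1* of the same library, 164 bp long, covered 74 reads of the other L1 libraries, slightly more than the 69 reads at the *xpc-1* stretch. The edges are shown in the same way:
*xpc-1* 5′ edge, chrIV:1994014-1994073, plus strand: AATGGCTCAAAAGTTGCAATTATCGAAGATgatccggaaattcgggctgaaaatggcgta
*xpc-1* 3′ edge, chrIV:1994504-1994563, plus strand: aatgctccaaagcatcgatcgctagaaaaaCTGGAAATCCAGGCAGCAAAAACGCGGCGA

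**Figure D1:**
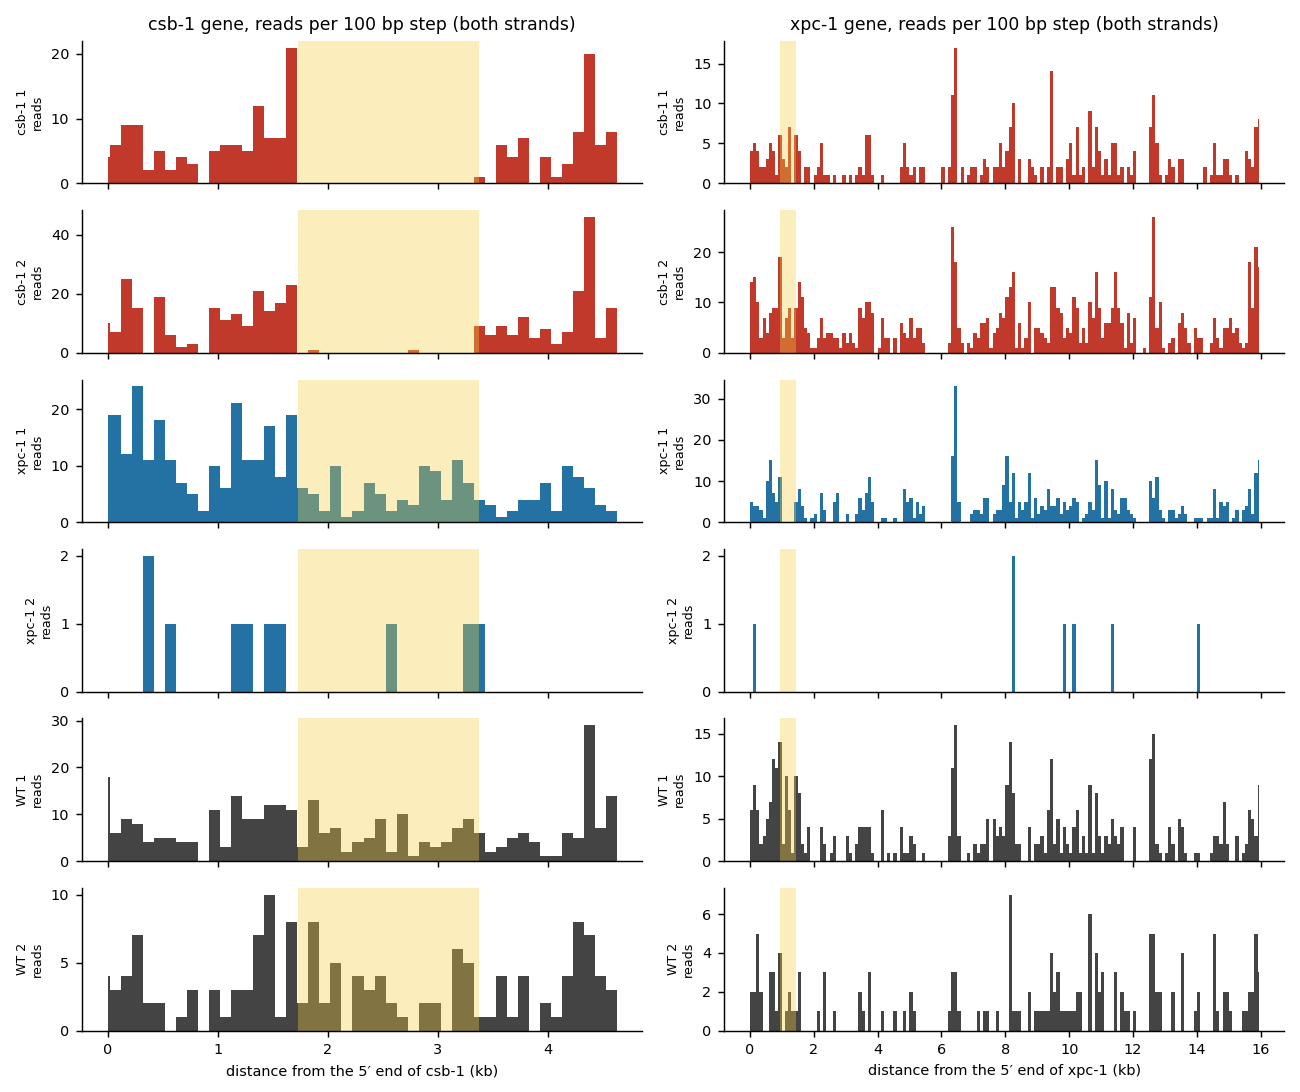
Reads of both strands in 100 bp steps (y axis, reads, with a scale of its own in each panel) against the distance from the 5′ end (x axis, kb) along the *csb-1* gene (left) and the *xpc-1* gene (right), with 1 row per irradiated library and the read-free stretch shaded. In the shaded 1642 bp of *csb-1* the *csb-1* libraries hold 0 and 2 reads, and in the shaded 490 bp of *xpc-1* the *xpc-1* libraries hold 0 and 0.

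Repair levels were compared between genes as RPKM over both strands, that is kept reads scaled by gene length in kb and by library depth. Such levels are relative to all kept reads of a library and do not give absolute amounts of repair. In WT they ran from 25.0 ± 0.201 at *ercc-1* through 15.6 ± 1.53 at *xpa-1*, 12.9 ± 0.731 at *csa-1*, 9.59 ± 0.229 at *xpg-1*, 9.17 ± 0.951 at *csb-1* and 6.88 ± 0.430 at *xpf-1* to 3.39 ± 0.288 at *xpc-1* (SD, n = 2 each). Only *xpg-1* and *csb-1* were neighbours in this order with replicate values that overlapped. In *csb-1* the levels lay between 3.82 ± 0.567 at the *xpc-1* gene and 20.3 ± 2.29 at *ercc-1*. In *xpc-1* they lay between 5.43 ± 3.36 at the *xpc-1* gene and 45.3 ± 15.1 at *xpa-1*, with 36.8 ± 5.44 at *ercc-1*. In *xpc-1* replicate 1 alone the *xpc-1* gene had 7.81. The order of *xpa-1* and *ercc-1* was not the same in both *xpc-1* libraries, with 56.0 at *xpa-1* and 33.0 at *ercc-1* in replicate 1 and 34.7 at *xpa-1* and 40.7 at *ercc-1* in replicate 2.

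The share of a gene's reads that lay on the TS separated the strains most at *xpa-1*. This share was 52.6% ± 5.09 in *csb-1*, 98.0% ± 2.86 in *xpc-1* and 70.2% ± 0.0902 in WT (SD, n = 2 each). At the *csb-1* gene it was 47.9% ± 2.52 in *csb-1* larvae, 85.5% ± 7.73 in *xpc-1* and 61.2% ± 7.99 in WT, and at the *xpc-1* gene 59.4% ± 1.79 in *csb-1*, 89.0% ± 4.62 in *xpc-1* and 62.2% ± 5.75 in WT. *xpg-1* had 53.0% ± 0.934 in *csb-1*, 74.4% ± 11 in *xpc-1* and 59.5% ± 1.76 in WT. The remaining 3 genes had no such order. *csa-1* had 49.5% ± 4.08 in *csb-1*, 31.0% ± 15.5 in *xpc-1* and 48.6% ± 1.70 in WT, and *ercc-1* had 54.9% ± 0.414 in *csb-1*, 35.8% ± 17.0 in *xpc-1* and 48.0% ± 2.55 in WT. At *xpf-1* the share was 51.6% ± 3.32 in *csb-1*, 58.9% ± 19.6 in *xpc-1* and 50.8% ± 1.45 in WT. The *xpc-1* means of these 3 genes include the shallow replicate 2, which was lower than replicate 1 at each and had 5, 97 and 20 reads on *csa-1*, *ercc-1* and *xpf-1*. In replicate 1 alone the share was 41.9% at *csa-1*, 47.8% at *ercc-1*, which lies between the WT values of 49.8% and 46.2%, and 72.7% at *xpf-1*, whose interval of 69.7% to 75.6% lies above its TT share of 54.7%. Replicate 1 gave 96.0% at *xpa-1*, 90.9% at *csb-1*, 92.2% at *xpc-1* and 82.2% at *xpg-1*. Set against the share of TTs on the TS, the exact 95% interval of the share lay above it for 1 of 14 gene and library pairs in *csb-1*, 5 of 14 in *xpc-1* and 3 of 14 in WT, and below it for 4, 3 and 2 of the 14. The intervals cover counting error only.

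**Figure D2:**
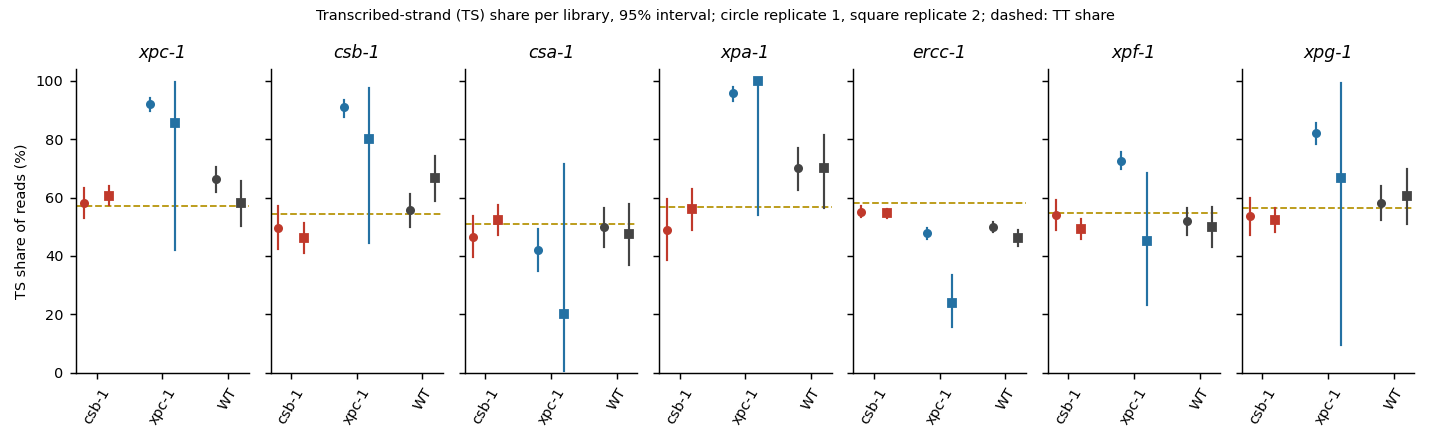
TS share of the reads of each member (y axis, %) in the *csb-1*, *xpc-1* and WT libraries (circles, replicate 1, and squares, replicate 2, with exact 95% intervals as bars) and the share of its TTs that lie on the TS (dashed lines). *xpa-1* stands at 98.0% in *xpc-1*, 52.6% in *csb-1* and 70.2% in WT on average, while *ercc-1* stands at 47.8% in *xpc-1* replicate 1 and 23.7% in the shallow replicate 2, against 49.8% and 46.2% in WT.

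The comparison of *csb-1* with WT asks what the loss of transcription-coupled repair does to repair of each strand. Relative to WT, the strand ratio was lower at *xpa-1* and, counted with its stretch without reads, at the *csb-1* gene, and it was higher at *ercc-1*. *xpa-1* had 47 and 114 TS reads against 49 and 89 reads on the non-transcribed strand (NTS) in *csb-1*, and 116 and 40 on the TS and 49 and 17 on the NTS in WT. The strands were thus nearly even in *csb-1*, and the TS exceeded the NTS in both WT libraries. The *csb-1* gene gave 90 and 168 TS reads and 91 and 196 NTS reads in *csb-1* larvae, and 179 and 99 on the TS and 143 and 49 on the NTS in WT. *ercc-1* had 1333 and 2240 reads on the TS and 1081 and 1860 on the NTS in *csb-1*, and 1679 and 625 on the TS and 1695 and 729 on the NTS in WT. The TS was therefore the strand with more *ercc-1* reads in both *csb-1* libraries, and the NTS in both WT libraries.

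The strand ratio, log2((TS + 0.5)/(NTS + 0.5)), and the level of each strand, the log2 of its RPKM with 0.5 read added, were tested with limma over the 23844 genes whose 4 libraries averaged 20 reads or more, which included all 7 members. The strand ratio fell by 1.07 at *xpa-1* (standard error 0.29, limma adjusted p = 0.0219) and by 0.78 at the *csb-1* gene (standard error 0.24, adjusted p = 0.0442), and rose by 0.40 at *ercc-1* (standard error 0.09, adjusted p = 0.00567). Of the 7 members 2 were thus called lower, where 13.4% of all genes tested were, and 1 higher, where 0.352% were. The median difference was -0.17 over the members and -0.21 over all genes. Fitted over genes averaging 100 reads or more, 2 of the 7 members were called lower, and 3498 of 13449 of all genes, whose median was -0.28. The other 4 members were not called, with -0.38 at *xpg-1* (adjusted p = 0.232), -0.17 at the *xpc-1* gene (adjusted p = 0.638), 0.05 at *csa-1* (adjusted p = 0.933) and 0.05 at *xpf-1* (adjusted p = 0.91).

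By strand, the TS level fell by 0.97 at the *csb-1* gene (standard error 0.18, limma adjusted p = 0.00173) and by 0.75 at *xpa-1* (standard error 0.22, adjusted p = 0.0309). These 2 of 7 members called lower compare with 12.2% of all genes, and 0 members were called higher in the limma fit, where 2.63% of all genes were. On the NTS 1 member, *ercc-1*, fell by 0.51 (standard error 0.09, adjusted p = 0.0308), where 0.134% of all genes were called lower, and none was called higher, where 0.117% were. At an unadjusted p under 0.05, 0 members were higher on the TS and 1 on the NTS. At the *csb-1* gene the difference includes the sequence without reads: with that gap left out, a setting chosen after seeing the data, the TS level differed by -0.43 (adjusted p = 0.15) and the strand ratio by -0.70 (adjusted p = 0.106), and neither was called. Beyond the stretch, 49.7% and 46.4% of the reads of the gene lay on the TS in *csb-1*, against 53.2% and 66.7% in WT.

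All calls of members in *csb-1* depended on how the fit shares the variance between genes. The prior variance followed the mean reads of a gene. Where it followed the mean of the tested value instead, the default trend of limma and a setting added after seeing the data, 0 members were called by limma in any of the 3 measures, with adjusted p = 0.14 for the strand ratio of *xpa-1*, 0.249 for that of the *csb-1* gene and 0.353 for that of *ercc-1*. By limma 0 of all genes were then called in strand ratio either, where 4066 were lower and 560 higher at an unadjusted p under 0.05, 2 members among the lower ones.

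With 2 libraries a group, single libraries decided several of these calls. The strand ratio of *xpa-1* was not called without *csb-1* replicate 1 (-0.87, limma adjusted p = 0.396) or replicate 2 (-1.28, adjusted p = 0.0679), and likewise its TS level (adjusted p = 0.298 and 0.0936). The call of the strand ratio of the *csb-1* gene was lost without *csb-1* replicate 1 (-0.89, adjusted p = 0.166), *csb-1* replicate 2 (-0.68, adjusted p = 0.256) or WT replicate 2 (-0.44, adjusted p = 0.177). For *ercc-1* the strand ratio was lost without *csb-1* replicate 1 (0.39, adjusted p = 0.0751) and the NTS level without *csb-1* replicate 2 (-0.40, adjusted p = 0.0569). Without WT replicate 1 the NTS level of *xpg-1* differed by 0.49, against a median of 0.197 over all genes.

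The comparison of mixed-stage *xpc-1* with L1 WT asks the same of the loss of global repair and the difference in stage together, which cannot be told apart. It shares the 2 WT libraries with the comparison above, and 19130 genes passed the filter of 20 reads, all 7 members among them. At *xpa-1* nearly all repair in *xpc-1* was on the TS, with 308 and 6 reads on it and 13 and 0 on the NTS, against 116 and 40 on the TS and 49 and 17 on the NTS in WT. The *csb-1* gene gave 341 and 8 TS reads and 34 and 2 NTS reads in *xpc-1*, against 179 and 99 on the TS and 143 and 49 on the NTS in WT. On the *xpc-1* gene, 547 and 6 reads were TS and 46 and 1 NTS in *xpc-1*, while 311 and 96 were TS and 158 and 69 NTS in WT. At these 3 genes the TS exceeded the NTS in both *xpc-1* libraries by more than in either WT library. *xpg-1* had 370 and 2 reads on the TS and 80 and 1 on the NTS in *xpc-1*, and 170 and 68 on the TS and 122 and 44 on the NTS in WT, so that the shallow replicate gives no order.

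In the limma fit the strand ratio rose by 2.88 at *xpa-1* (standard error 0.56, adjusted p = 0.0243). Since replicate 2 had 0 NTS reads there, the size depends on the count added, and with a pseudocount of 2 it was 2.01 (adjusted p = 0.251). This was 1 of 7 members called higher, where 23.8% of all genes were, and 0 members were called lower, where 0.894% of all genes were. Differences of 2.11 at the *xpc-1* gene (standard error 0.62, adjusted p = 0.0628) and 1.87 at the *csb-1* gene (standard error 0.69, adjusted p = 0.106) did not pass. Nor did 0.92 at *xpg-1*, 0.52 at *xpf-1*, -0.78 at *ercc-1* and -0.94 at *csa-1*. The median difference was 0.92 over the members and 1.25 over all genes. With *ercc-1* and *xpf-1* counted only outside other annotated genes, a setting chosen after seeing the data, the members' median was 1.87. Fitted over genes averaging 100 reads or more, 2 of the 7 members were called higher, and 4777 of 8402 of all genes, whose median was 2.14. The TS level rose by 2.02 at *xpa-1* (adjusted p = 0.0158), by 1.56 at *xpf-1* (adjusted p = 0.0351) and by 1.33 at the *csb-1* gene (adjusted p = 0.0409), that is at 3 of 7 members, where 20.5% of all genes were called higher, and 0 members were called lower, where 3.39% of all genes were. On the NTS 0 members were called by limma in either direction, where 7.79% of all genes were called lower and 0.199% higher. Among genes averaging 100 reads or more, 3694 of 8402 were called higher on the TS and 2697 lower on the NTS. These levels are relative to library depth, and whether the absolute amount of repair on a strand changed was not tested. At an unadjusted p under 0.05, 1 member was lower and 2 were higher on the NTS, and 0 members were lower in strand ratio or TS level.

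With the default trend of limma, *xpa-1* was still called in strand ratio (adjusted p = 0.0342) and TS level (adjusted p = 0.0256), while the TS levels of *xpf-1* (adjusted p = 0.0969) and the *csb-1* gene (adjusted p = 0.0729) were not.

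The differences against *xpc-1* moved with its shallow library. Without *xpc-1* replicate 2, the strand ratio rose by 3.29 at *xpa-1*, 2.83 at *xpc-1*, 2.64 at *csb-1*, 1.65 at *xpg-1* and 1.37 at *xpf-1*. The median of that fit was 1.65 over the members and 1.46 over all genes. That fit has 1 *xpc-1* library, which is assumed to vary as the WT libraries do. Without *xpc-1* replicate 1, the strand ratio differed by -1.55 at *ercc-1* and -1.50 at *csa-1*, against a median of 0.89 over all genes. That fit too has 1 *xpc-1* library, the shallow one, in which *csa-1* has 1 TS and 4 NTS reads (TS share 20%, exact interval 0.505% to 71.6%). The *xpa-1* difference was 2.90 without WT replicate 1 and 2.87 without WT replicate 2. Its call in strand ratio was lost in both, as were those of all genes tested. Without *xpc-1* replicate 2 the TS level had a median difference of 1.78 over the members and -0.26 over all genes. The NTS level was then lower at *xpa-1*, *xpc-1* and *csb-1* and higher at the other members, with a median of -1.71 over all genes.

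**Figure D3:**
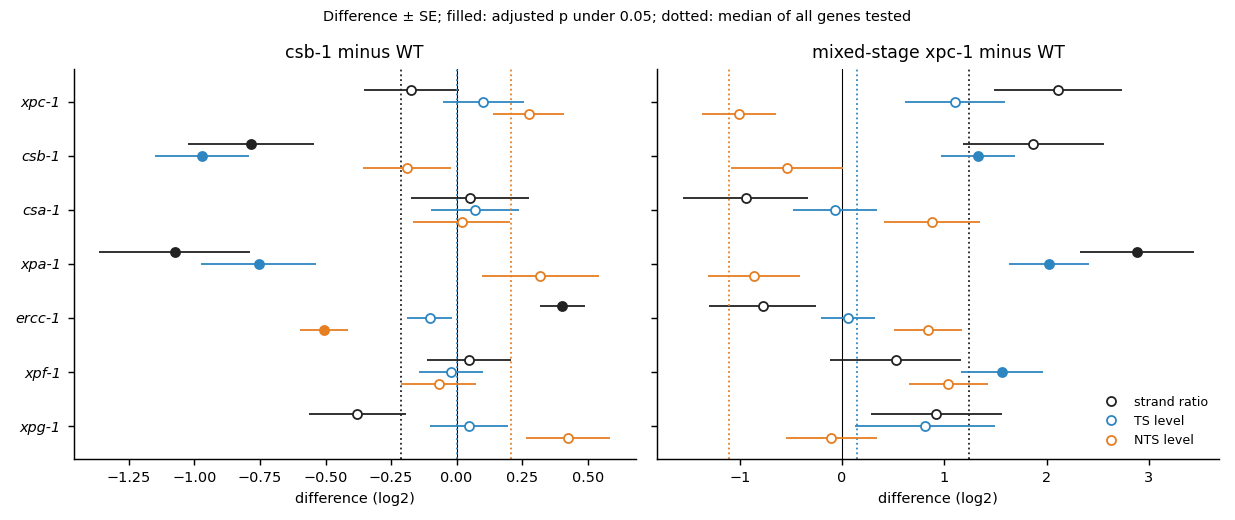
Differences on the log2 scale (x axis) of *csb-1* minus WT (left) and mixed-stage *xpc-1* minus WT (right) for each member (y axis), in strand ratio, TS level and NTS level, with standard errors as bars, filled points at an adjusted p under 0.05 and dotted lines at the median of all genes tested. *xpa-1* is called in both panels, with strand ratio differences of -1.07 and 2.88, and *ercc-1* is the member called higher in strand ratio at left, by 0.40.

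*csa-1*, *xpf-1* and *ercc-1* share sequence or a start region with genes on the other strand. *csa-1* gave 95 and 190 TS reads and 109 and 173 NTS reads in *csb-1*, 78 and 1 TS against 108 and 4 NTS in *xpc-1*, and 110 and 45 TS against 111 and 50 NTS in WT. Its start lies 139 bp from that of *wdfy-2*, which runs the other way. In the first 400 bp of *csa-1*, *xpc-1* had 19 and 0 reads on the TS and 102 and 4 on the NTS, and WT 52 and 14 on the TS and 26 and 12 on the NTS. Beyond them *xpc-1* had 59 and 1 on the TS and 6 and 0 on the NTS. The boundary of 400 bp was set after the counts were seen, near where the strand with more reads changes in *xpc-1* replicate 1. Cut at the midpoint of the gene instead, *xpc-1* had 57 and 0 TS against 105 and 4 NTS reads on the 5′ side and 21 and 1 TS against 3 and 0 NTS reads on the 3′ side, while WT had 78 and 33 TS against 78 and 35 NTS reads on the 5′ side and 32 and 12 TS against 33 and 15 NTS reads on the 3′ side. Beyond the first 400 bp *csb-1* had 51 and 124 TS against 81 and 137 NTS reads, and WT 58 and 31 TS against 85 and 38 NTS reads. The NTS of *csa-1* has the orientation of the TS of *wdfy-2*, whose own reads in *xpc-1* replicate 1 were 94.8% TS and whose strand ratio rose by 3.5 in *xpc-1* (adjusted p = 0.0173).

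In *xpf-1* the 1984 bp of *inos-1*, on the other strand, held 34 and 56 TS reads of *xpf-1* against 49 and 111 NTS reads in *csb-1*, 102 and 1 against 173 and 10 in *xpc-1*, and 40 and 15 against 74 and 39 in WT. The NTS of *xpf-1* therefore had more reads there in all 6 irradiated libraries. Outside the overlapping genes the TS share of *xpf-1* was 57.6% and 53.3% in *csb-1*, 88.6% and 88.9% in *xpc-1* and 57.1% in both WT libraries. Counted there alone, in a setting chosen after seeing the data, the strand ratio of *xpf-1* rose by 2.31 in *xpc-1* (limma adjusted p = 0.0232), against a difference of 0.52 over the whole gene.

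In *ercc-1* the 1537 bp of *ncs-2*, named as a neuronal calcium sensor gene, held 97 and 145 TS reads of *ercc-1* against 118 and 173 NTS reads in *csb-1*, 79 and 0 against 338 and 23 in *xpc-1*, and 101 and 33 against 239 and 117 in WT. The NTS excess was smallest in *csb-1*. Counted on its own strands, *ncs-2* fell in strand ratio by 1.26 (limma adjusted p = 0.00219) and in TS level by 1.08 (adjusted p = 0.000926) in *csb-1*. In the 7094 bp from the start of *ncs-2* to the second coding exon of *ercc-1*, which lie upstream of *ncs-2*, are intron and hold the ncRNA genes *F10G8.12* and *F10G8.11* on the other strand, the TS share of *ercc-1* was 59.2% and 59.0% in *csb-1*, 38.5% and 14.3% in *xpc-1* and 52.6% and 44.7% in WT. From the second coding exon to *nubp-1* it was 51.9% and 51.3% in *csb-1*, 67.4% and 72.7% in *xpc-1* and 52.5% and 49.2% in WT, and over the exons of *ercc-1* it was 75.6% and 85.7% in *xpc-1* and 54.6% and 57.8% in WT, while *csb-1* gave 87 and 121 TS reads and 87 and 144 NTS reads. In the 3106 bp from the start of *ercc-1* to *ncs-2*, on the other side, *ercc-1* had 260 and 442 TS against 235 and 426 NTS reads in *csb-1*, 313 and 5 against 168 and 6 in *xpc-1*, and 288 and 129 against 328 and 98 in WT. In *xpc-1* the NTS thus had more reads than the TS in the 7094 bp upstream of *ncs-2*, and in replicate 1 fewer in the 3106 bp downstream of it. The last 319 bp of *ercc-1* are shared with *nubp-1* on the same strand. They held 71 and 3 TS against 0 and 0 NTS reads in *xpc-1*, 43 and 27 against 4 and 1 in WT, and 23 and 36 against 8 and 13 in *csb-1*. The exon counts of *ercc-1* were not taken without this sequence. With all overlapping genes left out, a setting chosen after seeing the data, the strand ratio of *ercc-1* rose in *csb-1* by 0.35 (limma adjusted p = 0.015). This setting left out 2419 bp and kept most of the 7094 bp upstream of *ncs-2*, so it cannot place the rise outside that stretch.

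**Figure D4:**
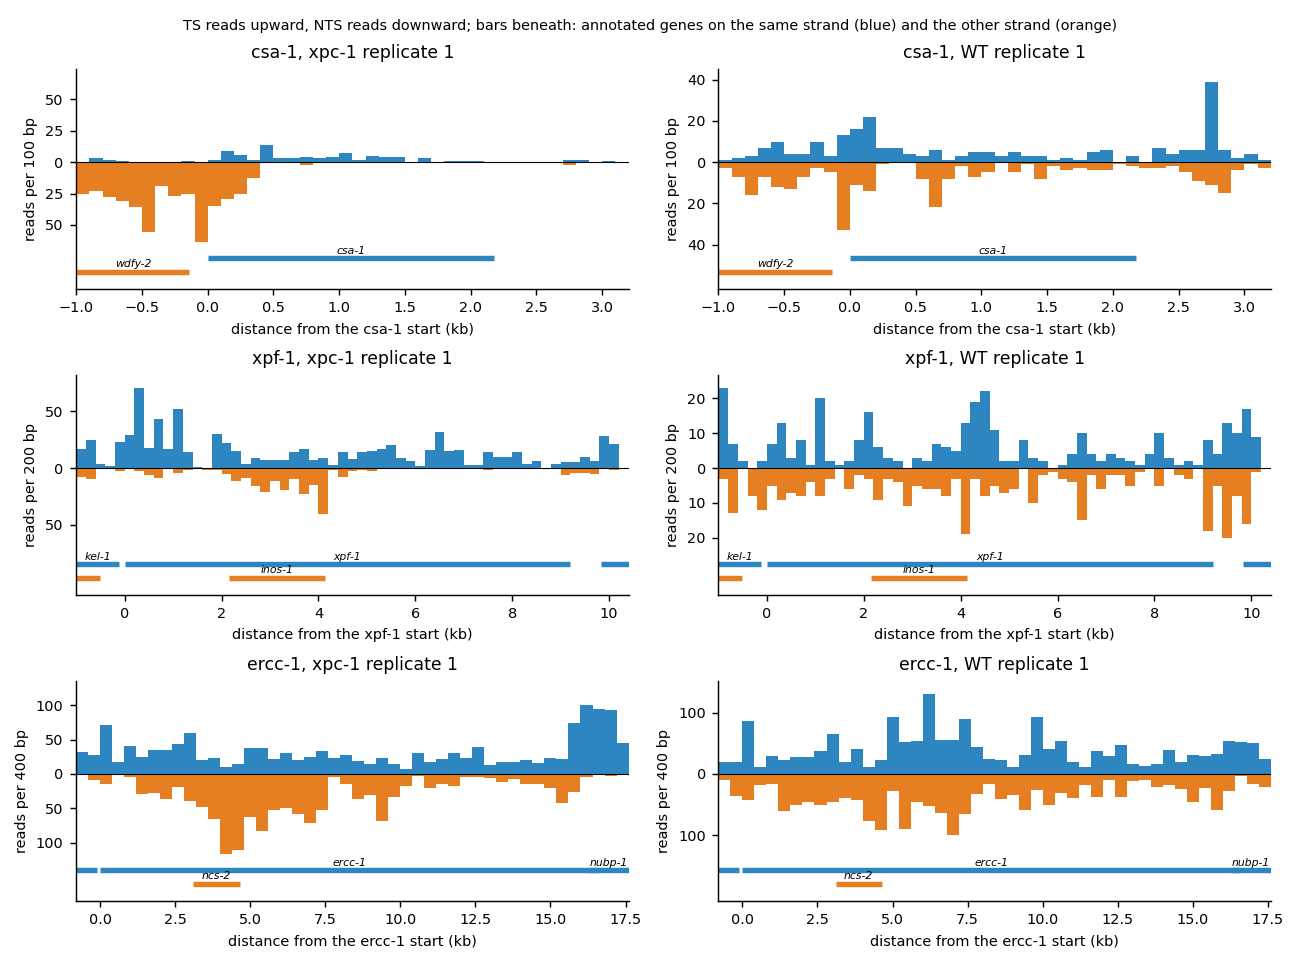
Reads on the TS (upward) and NTS (downward) of *csa-1*, *xpf-1* and *ercc-1* (rows; y axis, reads per step of the width given on the axis, with a scale of its own in each panel) against the distance from the gene's start (x axis, kb) in *xpc-1* replicate 1 (left) and WT replicate 1 (right). Bars beneath give genes on the same strand (blue) and the other strand (orange). In *xpc-1* replicate 1 the NTS reads number 102 in the first 400 bp of *csa-1*, 173 over *inos-1* and 338 over *ncs-2*. At *ercc-1* they are spread more widely, with 683 in the 7094 bp upstream of *ncs-2* and 172 from the second coding exon to *nubp-1*.

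Within the members, TS repair in WT was higher in exons than in introns, per kb, at 6 of 7 genes in both libraries. The ratio of the TS levels was 4.72 and 4.64 at *xpc-1*, 2.90 and 6.36 at *xpa-1*, 2.33 and 2.21 at *xpf-1* and 2.11 and 2.34 at *xpg-1*, and at *csb-1* it was 0.877 and 1.15. The 6.36 at *xpa-1*, in WT replicate 2, rests on only 2 intronic TS reads. In *csb-1* the ratio was 3.53 and 2.73 at *xpc-1*, 1.91 and 1.48 at *xpa-1*, 1.74 and 1.74 at *xpf-1* and 1.62 and 1.42 at *xpg-1*. It lay on both sides of 1 at *csa-1* (2.35 and 0.983), *ercc-1* (1.08 and 0.884) and the *csb-1* gene (1.07 and 0.889). The mean NTS RPKM in WT exons and introns was 1.99 and 0.985 at *xpc-1*, 7.25 and 5.37 at *csa-1* and 4.43 and 2.91 at *xpf-1*. It was 13.5 and 13.0 at *ercc-1* and 3.57 and 3.37 at *csb-1*. The order was reversed at *xpa-1*, 4.28 and 5.78, and *xpg-1*, 3.87 and 3.93. How far the mapping quality filter removes reads from introns was not tested. In WT the TS share was higher in exons than in introns in both libraries at 5 members, *xpc-1*, *xpa-1*, *ercc-1*, *xpf-1* and *xpg-1*, and at 4 of these, all but *ercc-1*, the TT share was also higher in exons. The exons of *ercc-1* reach into *nubp-1* on the same strand. The 319 bp of overlap held 43 and 27 TS against 4 and 1 NTS reads in WT, and the exon values of *ercc-1* were not counted without them. The TS share of *xpa-1* was 75.9% and 76.0% in exons and 42.9% and 28.6% in introns, that of *xpc-1* 73.2% and 68.1% in exons and 56.5% and 45.9% in introns, and that of *xpg-1* 63.9% and 64.0% in exons and 41.1% and 47.8% in introns. The TT shares of exons and introns were 62.8% and 44.6% at *xpa-1*, 65.7% and 55.1% at *xpc-1* and 63.4% and 47.5% at *xpg-1*, so that the TS shares of *xpg-1* lie close to its TT shares. At the *csb-1* gene the TS share was 55.2% and 66.4% in exons and 56.4% and 68.4% in introns, and at *csa-1* the libraries differed in order, with 47.7% and 50.7% in exons and 57.8% and 39.3% in introns. Cut at the gene's midpoint, *xpf-1* had more TS reads on the 5′ side in every irradiated library, 1.93 and 1.52 times those of the 3′ side in *csb-1*, 1.69 and 8 times in *xpc-1* and 1.92 and 1.68 times in WT, although it has fewer TTs there (0.581 times). The 8 times, in *xpc-1* replicate 2, is 8 reads against 1. *xpg-1* had the reverse in L1 larvae, 0.400 and 0.636 times in *csb-1* and 0.453 and 0.659 times in WT, against 1.17 times the TTs. In *xpc-1* it had 174 reads against 196 in replicate 1, 0.888 times, and 1 against 1 in replicate 2.

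The partners of these genes were counted from a list of 30 genes in 3 classes, of which 27 were found in the annotation by name. TFIIH opens the DNA around the lesion and was represented by 10 genes. A class of 7 held partners of recognition and the ubiquitin ligase, such as *rad-23*, the partner of XPC, *elof-1*, an elongation factor that takes part in transcription-coupled repair in human cells, and *rbx-1*, the RING subunit of cullin ligases. The remaining 10 fill and seal the gap. In *csb-1* the strand ratio fell at 2 of 10 TFIIH genes, 6 of 7 recognition genes and 2 of 10 gap-filling genes (limma, adjusted p under 0.05), and rose at none. These 10 of 27 compare with 13.4% of all genes, and the list's median was -0.64 against -0.21 over all genes. Most of the list is read more deeply than most genes. Fitted over genes averaging 100 reads or more, 12 of 25 of the list were called lower, and 3498 of 13449 of all genes. The medians there were -0.64 and -0.28. *rad-23* had 86 and 162 reads on the TS and 75 and 118 on the NTS in *csb-1*, and 235 and 139 TS against 85 and 30 NTS in WT. The difference was -1.50 at *rad-23* (standard error 0.25, adjusted p = 0.00152), -1.44 at *rbx-1* (adjusted p = 0.02) and -1.38 at *elof-1* (adjusted p = 0.00208), the lowest of the list among genes that averaged 100 reads or more. At the other end stood *xpd-1*, the gene of a TFIIH helicase (0.02), and *rfc-1* and *rfc-3*, of the clamp loader (-0.01 and -0.02), none of which was called. With the default trend of limma 0 of the list were called by limma in *csb-1*. Fewer of the list were called without either *csb-1* replicate, as over all genes. The list's median was -0.61 without *csb-1* replicate 1, -0.63 without *csb-1* replicate 2 and -0.72 without WT replicate 1. Over all genes the median was -0.22, -0.23 and -0.26 in the same fits.

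In *xpc-1* the strand ratio rose at 5 of 9 TFIIH genes, 5 of 7 recognition genes and 7 of 10 gap-filling genes, so that 17 of 26 were called where 23.8% of all genes were. The list's median was 3.02 against 1.25 over all genes and 0.92 over the 7 members. The members' median was 1.87 with *ercc-1* and *xpf-1* counted only outside other annotated genes. Fitted over genes averaging 100 reads or more, 18 of 24 of the list were called higher, and 4777 of 8402 of all genes. The medians there were 3.13 over the list and 2.14 over all genes. *cyh-1*, the cyclin H gene of TFIIH, gave 256 and 6 TS reads and 4 and 0 NTS reads in *xpc-1*, and 109 and 42 TS against 63 and 25 NTS in WT, a difference of 4.01 (standard error 0.83, limma adjusted p = 0.0282). *pole-2*, of DNA polymerase epsilon, differed by 3.86 (adjusted p = 0.0156), and *mnat-1*, of the kinase part of TFIIH, by 3.77, which did not pass (adjusted p = 0.0569). The smallest differences, 0.07 at *gtf-2H2C*, 0.83 at *gtf-2H1* and 1.28 at *uvs-1*, were not called. Without either WT replicate the calls of the list were lost, as were those of all genes tested. The list's median was 2.73 without WT replicate 1, 3.04 without WT replicate 2 and 3.31 without *xpc-1* replicate 2. Over all genes the median was 1.59, 1.25 and 1.46 in the same fits.

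**Figure D5:**
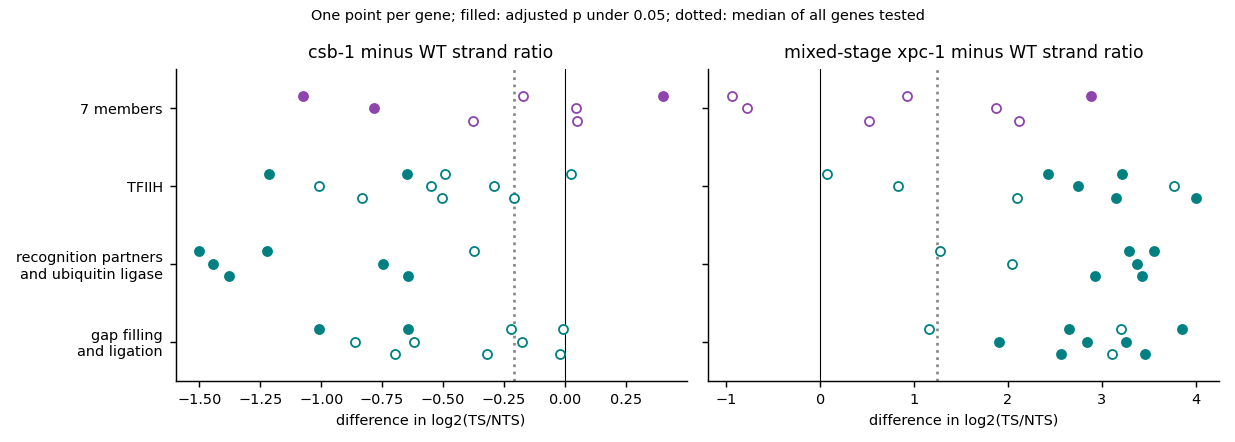
Difference in log2(TS/NTS) (x axis) for the 7 members and the 3 classes of partner genes (y axis), 1 point per gene, in *csb-1* minus WT (left) and mixed-stage *xpc-1* minus WT (right), filled at an adjusted p under 0.05, with dotted lines at the median of all genes tested. In *xpc-1* the partner genes have a median of 3.02 and the members 0.92. With *ercc-1* and *xpf-1* counted only outside other annotated genes, which is not drawn, the members' median was 1.87.

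Unirradiated WT larvae gave the background of the assay. They had 3 and 5 TS reads and 3 and 2 NTS reads on all 7 members together, in which no member passed 3 reads in a library. Divided by the kept reads, this is 585 and 542 RPM, against 651 and 660 RPM in irradiated WT. The libraries are so small that their reads on the members cannot be placed above or below those of irradiated worms by this measure, and the 2 groups differ in the number of kept reads instead, 10260 and 12916 in unirradiated WT against at least 143716 in every irradiated library. The stages of the worms were not checked with marker genes.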

How the data were processed

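Per the labels and the paper's methods, the authors trimmed adaptors with cutadapt, aligned XR-seq reads to ce11 with Bowtie2 and used bedtools; the deposited score is the aligner's mapping quality, up to 42, and reads run from 19 to 24 nt. Reads scoring over 20 on the 6 nuclear chromosomes were kept, counted once whatever their number of copies, and placed by midpoint and strand in Ensembl genes of WBcel235, which is ce11. The TS is the strand opposite the annotated one. Strand ratios and levels were fitted with limma 3.58.1 (R 4.3.3), with 0.5 read added, a prior variance trend on log2 mean reads and Benjamini-Hochberg adjustment over all genes tested, and the fit was tested on simulated data. The fixed design asked for a variance trend without naming its covariate. Mean reads were chosen because limma's default, the mean of the tested value, found fewer of the genes that were made to differ in that test, and the default is given as an alternative. The simulated spread came from read counts and a term of constant size. That test therefore cannot say which trend suits the variance of the real data. Shares have exact Clopper-Pearson intervals at 95%, and a count of 0 allows up to 3 reads. PCR copies are not independent molecules. Python 3.11.15 (scipy 1.17.1, numpy 2.4.6) made the tables.

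All 7 members are named, and of the partner list the 3 lowest and 3 highest differences in each comparison among those averaging 100 reads or more. Members and lists were chosen with earlier results of these data known. Alternatives changed the variance trend, the count of copies or positions, the filters, the pseudocount, the depth, the weights, the block and the libraries used.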

Additional observations from a re-analysis of the deposited data

How the results depend on the processing

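Of 448 member differences under settings that kept all libraries, 383 kept their direction and side of the threshold, 26 lost a call, 19 gained one and 20 turned round, and of 168 with a library left out 108 kept both. Those that turned round were small in the *csb-1* comparison. In strand ratio, *xpf-1* was -0.0219 with each position counted once, -0.26 thinned to the shallowest library, -0.0299 weighted by reads and -0.0975 outside other genes. In TS level, *csa-1* was -0.00857 with copies counted and -0.0014 thinned, and *xpf-1* 0.0987 with copies and 0.00642 weighted. In NTS level, *csa-1* was -0.0499 with copies and -0.114 thinned, *xpf-1* 0.218 thinned and 0.0418 weighted, and *csb-1* 0.0715 without its stretch of empty steps and 0.267 without its gap. In the *xpc-1* comparison, the TS level of *ercc-1* was -0.107 with copies and that of *csa-1* 0.414 with a pseudocount of 2 and 0.262 weighted, and the NTS level of *xpg-1* was 0.374 with a pseudocount of 2 and 0.199 weighted and that of *xpa-1* 0.135 with a pseudocount of 2. With a library left out, the *csb-1* comparison ran from -0.116 to 0.217 at *csa-1*, -0.0886 to 0.182 at *xpf-1* and -0.424 to 0.0769 at *xpc-1* in strand ratio. In TS level it ran from -0.0554 to 0.149 at *xpg-1*, -0.226 to 0.0194 at *ercc-1*, -0.0576 to 0.0158 at *xpf-1* and -0.0803 to 0.283 at *xpc-1*, and in NTS level from -0.145 to 0.185 at *csa-1* and -0.238 to 0.102 at *xpf-1*. The *xpc-1* comparison ran from -0.321 to 1.37 at *xpf-1* in strand ratio, from -0.267 to 1.89 at *xpg-1*, -0.28 to 0.399 at *ercc-1* and -0.396 to 0.263 at *csa-1* in TS level, and from -0.454 to 0.241 at *xpg-1* and -1.17 to 0.092 at *csb-1* in NTS level.

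Counts of calls moved as follows, with the cause not tested. Ranges with a library left out come from fits with 1 library in a group, where calls over all genes moved as well. With the variance trend on the mean value, the *csb-1* members called were 0 lower and 0 higher in strand ratio, 0 lower on the TS and 0 lower on the NTS by limma, against 2, 0, 2 and 1 at an unadjusted p under 0.05, and 0 of the list were lower in strand ratio, while the *xpc-1* members higher on the TS were 1. For *csb-1* the members called lower in strand ratio were 2, but 1 with copies counted or without the gap and 0 when thinned or with a mean of at least 1 read (0 to 2 with a library left out); the 1 higher was 0 with a mean of at least 1 read or without genes overlapping an opposite-strand gene, which leaves out *ercc-1* (0 to 1). The 10 lower of the list were 0 with a mean of at least 1 read (4 to 17), and the 0 higher ran from 0 to 1. On the TS the 2 lower were 1 with copies or without the gap and 0 thinned (1 to 2). On the NTS the 1 lower was 0 with copies, thinned or without overlapping genes (0 to 1), and the 0 higher ran from 0 to 1. For *xpc-1* the 1 member higher in strand ratio was 0 with copies, a pseudocount of 2, a mean of at least 1 read or thinned, 2 with a mean of at least 100 reads or outside other genes and 5 weighted (0 to 5), and the 0 lower ran from 0 to 2. The 17 higher of the list were 9 with copies, 0 with a pseudocount of 2, 5 with a mean of at least 1 read, 11 without overlapping genes and 26 weighted (0 to 27). On the TS the 3 higher were 0 thinned and 6 weighted (0 to 6), and the 0 lower ran from 0 to 1. On the NTS weighting gave 3 lower and 3 higher (0 to 3 each). The thinned *xpc-1* comparison could test 805 genes with 1 member, *ercc-1*. Settings on the variance trend, the gap and on members outside other genes were chosen after seeing the data.

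Replicate numbers did not pair the libraries: deviations of the same number correlated between -0.03 and 0.04 over genes. With the replicate block, 2 members were called higher in strand ratio in *xpc-1*, *xpc-1* being added (adjusted p = 0.0213), and 13 of the list were lower in *csb-1* and 22 higher in *xpc-1*. At 143716 reads, *xpc-1* replicate 2 holds 3 to 97 reads a member, which limits every value of it.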

Other observations

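For each member the gene with the most similar repair was found among 19104 genes, by the Euclidean distance over 10 values, the log2 TS and NTS levels in the 4 irradiated L1 libraries and *xpc-1* replicate 1. These were *sql-1* for *xpc-1* (distance 0.406), *Y46G5A.18* for *csb-1* (0.668), *C36E8.4* for *csa-1* (0.666), *suco-1* for *xpa-1* (0.382), *F40F12.9* for *ercc-1* (0.499), *cox-11* for *xpf-1* (0.428) and *brf-1* for *xpg-1* (0.464). The median distance over all genes was between 3.69 for *csb-1* and 5.93 for *ercc-1*, and between 13 genes (*ercc-1*) and 120 genes (*xpa-1*) lay within 1 of a member. The distances are descriptions, and the TS and NTS levels of a library share its depth.

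Inside the *xpc-1* stretch, near its 5′ end, 2 reads of mapping quality 1 were present in *xpc-1* replicate 1 and were left out by the filter.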
